A study of Homo sapiens with 4 samples.

Results

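Cytosolic ribosomal protein genes encode the proteins of the ribosome that works in the cytoplasm, and 56 of them, 33 of the large subunit (RPL) and 23 of the small subunit (RPS), were examined for histone acetylation and transcription factor binding at their promoters in a prostate cancer cell line. The members were a fixed list of names from the family, with no threshold on a measured value, and are 56 of the 20136 protein-coding genes in the annotation, and 25 further genes of the family outside that list serve as a comparison. A promoter was the window from 1000 bp before to 100 bp after any annotated transcript start of a gene, and a gene had a promoter peak when a peak shared at least 1 bp with that window.

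The 3 libraries with peak lists were made by ChIP-seq from LNCaP, an androgen-responsive cell line from a lymph node metastasis of prostate cancer. For the first library, cells at passage 20 in medium with charcoal-stripped serum, which holds little steroid hormone, were given 10 nM dihydrotestosterone (DHT, the ligand of the androgen receptor) for 4 h, and chromatin was precipitated with an antibody to histone H3 acetylated at lysine 27 (H3K27Ac), a mark of active promoters and enhancers. For the second, cells of the same passage in the same serum were given the ethanol vehicle, and the same antibody was used. For the third, cells at passage 15 in serum that was not stripped were precipitated with an antibody to TCF7L2, the transcription factor at the end of the Wnt pathway. The labels give 10% fetal bovine serum for these cells, whereas the published methods state a lower share. Each condition had 1 library of 1 cell line, so no difference between conditions has a replicate check and no p-value is given. The question put to the H3K27Ac pair was how acetylation at these promoters compared after a pulse of androgen, and to the TCF7L2 list, at which of them the factor was found.

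Ribosomal proteins are needed in matched amounts, and their genes are among the most actively transcribed in growing cells. Their transcripts usually begin with a C followed by an unbroken run of pyrimidines, the terminal oligopyrimidine or TOP element, through which the kinase mTOR controls their translation. Most of the genes are short, many hold small nucleolar RNA genes in their introns, and the family has left very many processed pseudogenes in the human genome.

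The start sequences of 8 members are shown because the TOP element is what the family shares at the letter level: the tallest H3K27Ac promoter peak (RPS12), the P stalk, the 5S ribonucleoprotein, the S6 kinase substrate RPS6, and the member with the largest ratio of DHT to vehicle (RPS16). Each holds 40 bases before and 20 bases from the canonical start in the GRCh37 genome, on the strand of the gene, so that the last 20 lie in its first exon, and capitals mark the pyrimidine tract that begins at the start.
RPS12 (chr6:133135668-133135727, plus strand): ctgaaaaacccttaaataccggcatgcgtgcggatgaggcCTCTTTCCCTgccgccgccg
RPLP0 (chr12:120638895-120638954, minus strand): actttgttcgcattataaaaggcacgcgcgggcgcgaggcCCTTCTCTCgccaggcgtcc
RPLP1 (chr15:69745117-69745176, plus strand): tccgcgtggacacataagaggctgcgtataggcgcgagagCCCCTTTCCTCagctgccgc
RPLP2 (chr11:809927-809986, plus strand): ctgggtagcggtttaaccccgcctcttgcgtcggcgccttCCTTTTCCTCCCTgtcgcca
RPL5 (chr1:93297557-93297616, plus strand): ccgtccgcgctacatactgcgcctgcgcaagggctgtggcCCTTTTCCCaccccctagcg
RPL11 (chr1:24018256-24018315, plus strand): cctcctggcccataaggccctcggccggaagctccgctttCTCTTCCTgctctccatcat
RPS6 (chr9:19380215-19380274, minus strand): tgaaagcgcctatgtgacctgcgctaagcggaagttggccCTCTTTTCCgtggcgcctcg
RPS16 (chr19:39926570-39926629, minus strand): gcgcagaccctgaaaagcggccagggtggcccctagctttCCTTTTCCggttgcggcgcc
A tract was counted where the first base was C and the following 4 were C or T. By that rule 51 of 56 members (91.1%) had a tract at 1 or more protein-coding starts, against 10.6% of all protein-coding genes with such a start and 13.1% of those that also had an H3K27Ac promoter peak with vehicle. At the canonical start alone the tract was found in 44 members (78.6%), against 4.60% of all genes. The first base was C in 48 of 56 members, against 10.7% of all genes, and the pyrimidine run from a C start was 8 bases at the median and 16 at the longest, in RPL7A. The 5 members with no tract at any start were RPL3, RPL10A, RPL19, RPL27 and RPS28. For contrast, the same 60 bases follow for RPL3, next to RPS12 in height, and RPS28, one of the lowest. In both, a pyrimidine run lies at or beside the annotated start without meeting the rule, so no letters are in capitals.
RPL3 (chr22:39715609-39715668, minus strand): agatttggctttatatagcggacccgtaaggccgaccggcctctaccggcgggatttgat
RPS28 (chr19:8386340-8386399, plus strand): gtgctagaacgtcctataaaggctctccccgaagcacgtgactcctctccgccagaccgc

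Further short motifs were looked for on both strands from 250 bases before to 50 after the canonical start, and a match is a description of letters, not a binding site. CCGGAAG, the core bound by ETS factors, was in 21 of 56 members (37.5%), against 14.2% of all genes and 21.3% of genes with an H3K27Ac promoter peak with vehicle. It can be read in the RPL11 sequence. AAGATGG, a core of the YY1 motif, was in 8 members (14.3%), against 6.42% of all genes and 8.40% of those with that peak, and shares the letters AAG with CCGGAAG where the pair overlaps. For the other motifs the reading changed with the background. GGGCGG, the GC box of SP factors, was in 34 members (60.7%), against 61.5% of all genes and 73.1% of those with the peak. TATAAA was in 6 members (10.7%), against 9.63% of all genes and 5.47% of those with the peak. CACGTG, the E box of MYC, was in 5 members (8.93%), against 8.77% and 10.2% in the same order, and AGAACA, an androgen receptor half-site, in 8 (14.3%), against 10.7% and 8.24%. The 8 members with AGAACA had a median log2 ratio of DHT to vehicle of 0.12, and the 48 without it 0.18.

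**Figure D1:**
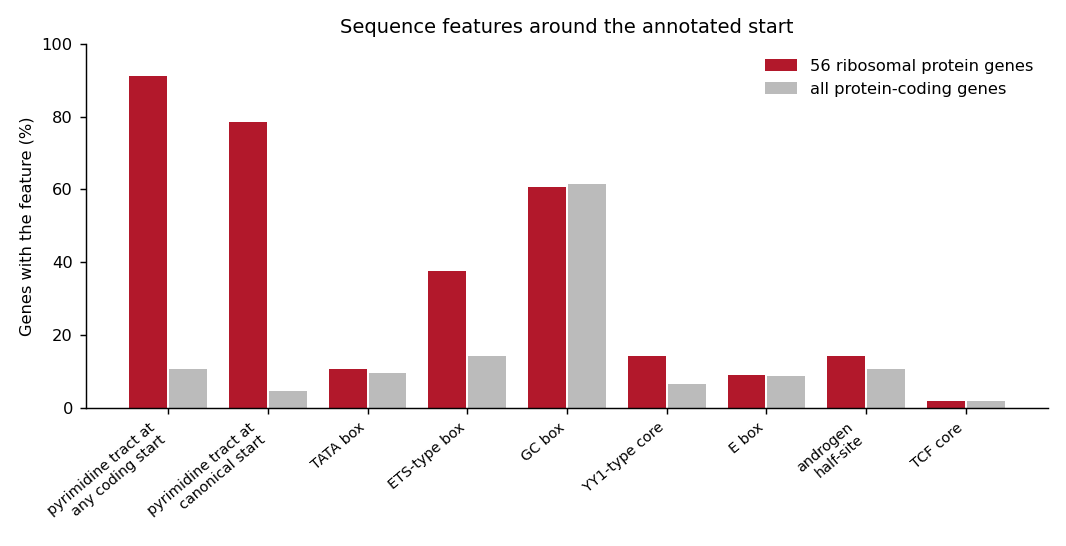
Share of genes (percent, vertical axis) with each sequence feature, for the 56 ribosomal protein genes (red) and for all protein-coding genes (grey). The pyrimidine tract is at 91.1% of members against 10.6% of all genes and the ETS-type box at 37.5% against 14.2%. Genes with an H3K27Ac promoter peak, which are not drawn, have the GC box at 73.1% and the TATA box at 5.47%, against 60.7% and 10.7% of members.

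Every member had an H3K27Ac peak at its promoter in both conditions. The count was 56 of 56 members in the DHT list, where 57.5% of all protein-coding genes had one, and 56 of 56 in the vehicle list, where 56.3% had one. The value deposited for a peak is its height, the tag pileup at its highest point, and each gene was given its tallest promoter peak. The median height of members was 64.5 tags with DHT (quartiles 45.5 and 80, range 25 to 134) and 59.5 tags with vehicle (quartiles 40.5 and 73, range 22 to 111). The medians over all genes with a peak were 47 and 41 tags. Within each list, the median member peak stood at percentile 86.4 of all peaks with DHT and 86.0 with vehicle, against 76.7 and 74.4 for the promoter peaks of all genes. Read the other way, 25% of members had heights at or below 45.5 tags with DHT and 40.5 with vehicle, under the all-gene medians.

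**Figure D2:**
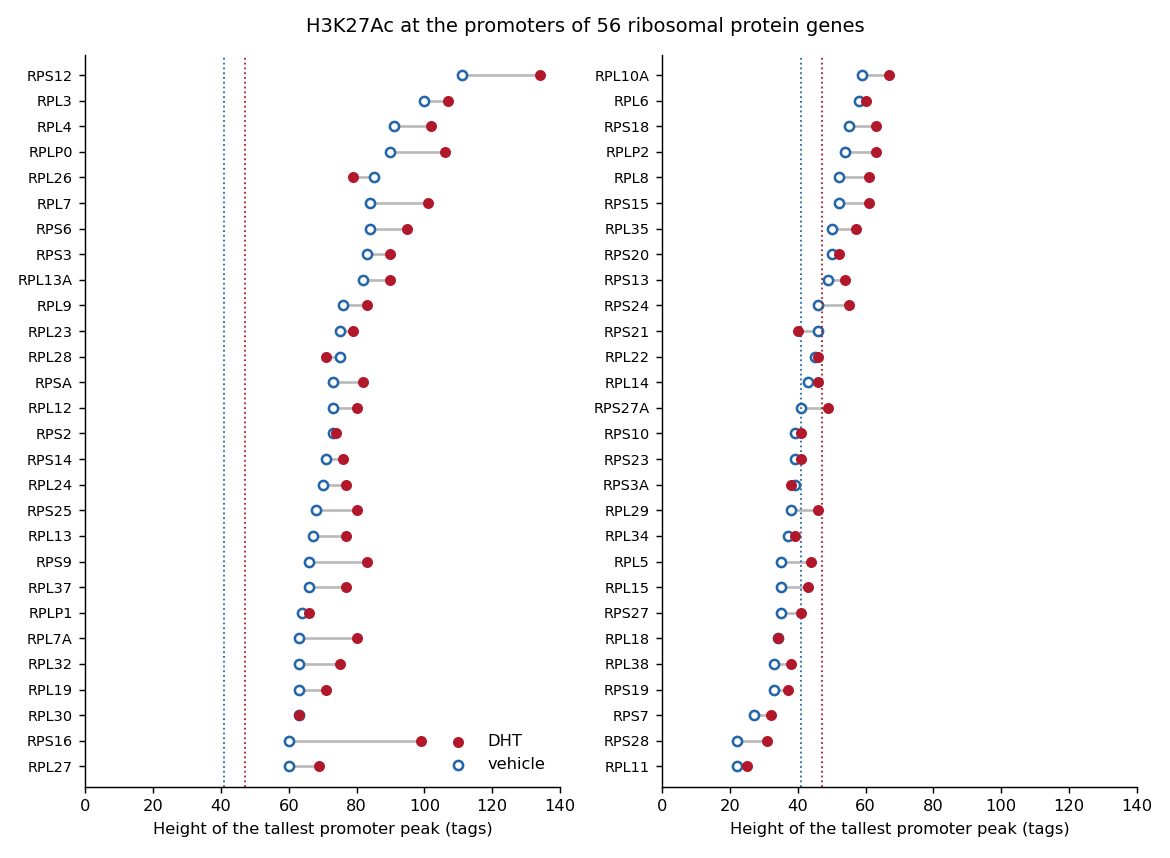
Height of the tallest promoter H3K27Ac peak (tags, horizontal axis) of each of the 56 members, with DHT (filled red) and vehicle (open blue), ordered by vehicle height, and the all-gene medians of 47 and 41 tags as dotted lines in the same colors. RPS12 stands highest at 134 and 111 tags and RPL11 lowest at 25 and 22, and only RPS16 has a wide gap between its points (99 and 60).

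The order of members held between the lists, with a Pearson correlation of log2 heights of 0.96 and a Spearman correlation of 0.95 over the 56 genes, which share the depth of their libraries. RPS12, in the head of the small subunit, had the tallest peak, with 134 tags with DHT and 111 with vehicle. RPL3, which reaches toward the peptidyl transferase center, had 107 tags with DHT and 100 with vehicle. RPL4, which helps to line the exit tunnel of the new peptide, had 102 and 91 in the same order. The exact Poisson 95% interval, which covers counting error only, was 112 to 159 tags for RPS12 with DHT and 87.7 to 129 for RPL3, so these neighbors in the order had overlapping intervals. RPL7 of the large subunit had 101 tags in the DHT list and 84 in the vehicle list. RPS6, the phosphorylation target of S6 kinases, had 95 with DHT and 84 with vehicle. RPS3, at the entry channel for mRNA, had 90 with DHT and 83 with vehicle, and RPL26, near the exit of the tunnel, 79 with DHT and 85 with vehicle. Among these tallest promoters RPL26 was thus the one whose DHT peak was the lower of the pair.

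At the other end stood RPL11, which joins the 5S RNA and binds MDM2 when ribosome assembly is disturbed. Its peak had 25 tags with DHT (95% interval 16.2 to 36.9) and 22 with vehicle (13.8 to 33.3), both under the all-gene medians. Its partner in the 5S ribonucleoprotein, RPL5, had 44 tags with DHT and 35 with vehicle. The P stalk, which recruits elongation factors, was higher: RPLP0, its base, had 106 tags with DHT and 90 with vehicle, RPLP1 had 66 and 64 in that order, and RPLP2 had 63 and 54. In both lists the heights of the 3 stalk genes were above those of the 2 genes of the 5S ribonucleoprotein, although the interval of RPL5 with DHT (32.0 to 59.1 tags) overlapped that of RPLP2 (48.4 to 80.6).

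Low promoters were found in both subunits. RPS28, in the head of the small subunit, had 31 tags with DHT and 22 with vehicle. RPS7, also of the small subunit, had 32 tags with DHT and 27 with vehicle. RPS19, the gene most often mutated in Diamond-Blackfan anemia, had 37 with DHT and 33 with vehicle. The other low members encode parts of the large subunit: RPL38, known in mouse for its part in the translation of Hox mRNAs, had 38 with DHT and 33 with vehicle, RPL18 had 34 in each, and RPL15 had 43 with DHT and 35 with vehicle. By subunit, the 33 large subunit members had median heights of 69 tags with DHT and 63 with vehicle, and the 23 small subunit members 55 and 50, with ranges that overlapped over most of their length. RPSA, the small subunit protein also known as the laminin receptor, had 82 tags with DHT and 73 with vehicle. RPS27A, made as a fusion to ubiquitin, had 49 with DHT and 41 with vehicle.

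Because the number of reads is not in the lists, the DHT to vehicle ratio of a member has to be read against that of all genes. Over the 11179 genes with a promoter peak in both lists the median log2 ratio was 0.18, a fold of 1.13, and that shift runs through the whole table. Members had a median log2 ratio of 0.18 (fold 1.13, quartiles 0.08 and 0.23), a difference from the all-gene median of -0.0072, with 27 members above it and 29 below. In tags as deposited, 50 members were higher with DHT, 2 were equal (RPL18 and RPL30) and 4 were lower (RPS21, RPL26, RPL28 and RPS3A). The members also lay closer together than genes at large, with an SD of the log2 ratio of 0.14 over the 56 members against 0.30 over all genes. Poisson counting of both heights alone would give an SD of 0.26 for the median member and 0.31 for the median gene, so the spread among members was smaller than independent Poisson counts would give. The Poisson intervals are therefore wide for a comparison of these 2 lists, and their overlap does not show that heights were the same.

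One member reached 1.5-fold. RPS16, a head protein whose tail reaches the decoding site, had 99 tags with DHT (95% interval 80.5 to 121) and 60 with vehicle (45.8 to 77.2), a log2 ratio of 0.72, and it is the only member whose intervals did not overlap. That is 1 of 56 members at least 1.5 times higher, against 6.39% of all genes. None of the 56 was at least 1.5 times lower, against 0.805% of all genes. Divided by the all-gene ratio, no member passed 1.5-fold in either direction, RPS16 included, while 343 genes did so upward and 190 downward. The peak of RPS16 also covered a promoter of SUPT5H, a transcription elongation factor gene, whose own tallest promoter peak had 115 tags with DHT against 75 with vehicle. Tags of a peak shared by neighbors cannot be told apart by gene.

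The members after RPS16 had small ratios. RPS28 had a log2 ratio of 0.49, from 31 tags with DHT and 22 with vehicle, and its peak likewise covered the promoter of NDUFA7. RPL7A, of the large subunit, had 80 tags with DHT against 63 with vehicle (0.34). RPS9, of the small subunit, had 83 with DHT against 66 with vehicle (0.33). RPL5 and RPL15 had log2 ratios of 0.33 and 0.30. At the low end RPS21, a small subunit protein, had 40 tags with DHT and 46 with vehicle, a log2 ratio of -0.20. RPL28 of the large subunit had 71 with DHT and 75 with vehicle (-0.08), and RPS3A of the small subunit had 38 with DHT and 39 with vehicle (-0.04). RPL26 had a log2 ratio of -0.11, and RPL30, with 63 tags in each list, a ratio of 0.

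**Figure D3:**
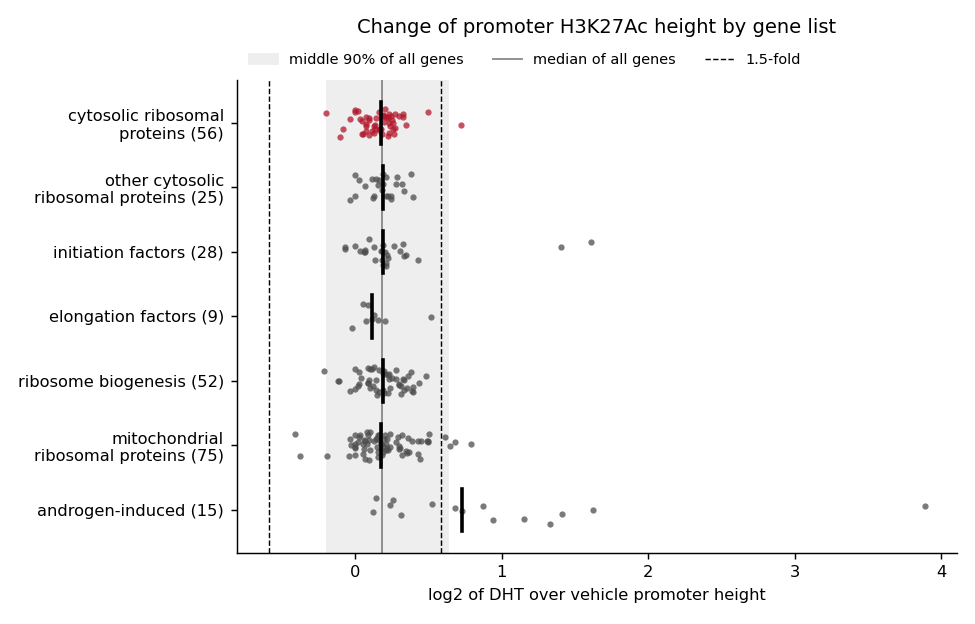
Log2 ratio of promoter H3K27Ac height with DHT over vehicle (horizontal axis) for each gene (point) of 7 lists, with list medians as black bars, the middle 90% of all genes shaded and 1.5-fold as dashed lines. The 56 ribosomal protein genes lie between -0.20 and 0.72 around a median of 0.18, beside an all-gene median of 0.18, and the androgen-induced list has its median at 0.73.

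Other genes of translation stood near the same value. The 25 further cytosolic ribosomal protein genes, outside the 56, all had a peak in both lists, with median heights of 72 tags with DHT and 64 with vehicle, a median log2 ratio of 0.19 and none past 1.5-fold. Their largest ratio was 0.39 (RPL37A). Median log2 ratios were 0.19 for 28 initiation factors, with 2 at least 1.5 times higher, 0.12 for 9 elongation factors with none, 0.19 for 52 ribosome biogenesis factors with none, and 0.18 for 75 mitochondrial ribosomal protein genes with 4. The mitochondrial ribosomal genes, encoding the other ribosome of the cell, had lower promoters, with medians of 43 tags with DHT and 36 with vehicle. EIF2S1, a subunit of the factor that brings the initiator tRNA, had 113 tags with DHT and 37 with vehicle, the largest ratio among these lists (1.61). The EIF2S1 peak was 12449 bp wide with DHT and 3119 bp with vehicle, so the 2 highest points may lie at different places. For scale, 15 of 16 textbook androgen-induced genes had a peak in both lists, with medians of 118 tags with DHT and 53 with vehicle, a median log2 ratio of 0.73 and 9 at least 1.5 times higher. KLK3, the gene of prostate-specific antigen, had 148 tags with DHT and 10 with vehicle, in a list whose lowest peak has 9. The KLK3 peak was 27959 bp wide with DHT and 1109 bp with vehicle, so here too the highest points may lie apart. The label of the cells was checked in the same lists: promoter peaks were found at 10 of 10 luminal prostate markers and 0 of 4 basal markers in each list, at 2 of 6 stromal markers with DHT and 3 of 6 with vehicle, and in each list at 1 of 5 leukocyte markers (CD68, with the same peak as EIF4A1) and 2 of 3 endothelial markers (CDH5 and VWF). The luminal markers KRT8 and KRT18 had the same heights (112 tags with DHT, 94 with vehicle) and widths, so they may share 1 peak. PECAM1, also planned as an endothelial marker, is not among the 3 counted. In the TCF7L2 list a promoter peak was at 1 of 10 luminal markers (KRT8 with 92 tags) and 2 of 4 basal markers (KRT5 with 27 tags and KRT15 with 32).

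The peaks over these genes were broad and lay on both sides of the start, in most members with the longer side downstream. Median width was 5189 bp with DHT and 4799 bp with vehicle, against 2879 and 2759 bp for all genes. Breadth was not particular to them: in the same order the medians were 8099 and 5129 bp for the androgen-induced genes and 15719 and 7304 bp for the luminal markers. From the canonical start, the median member peak reached 3402 bp downstream with DHT and 3244.5 bp with vehicle, and 1494.5 and 1479.5 bp upstream. The downstream reach was not cut at the end of the gene, so in short genes it can run past it. For all genes whose peak covers the canonical start the medians were 1546 and 1493 bp downstream, and 1261 and 1223.5 bp upstream. The downstream reach was the longer side in 48 of 56 members with DHT (85.7%) and 47 with vehicle (83.9%), against 61.8% and 61.4% of all genes.

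Members are also short, with a median gene length of 5321 bp against 27217 bp for all genes. The peak covered the whole gene in 22 members with DHT (39.3%) and 18 with vehicle (32.1%), against 2.72% and 2.55% of all genes. RPL3 had the longest reach with DHT, 9068 bp, against 9188 bp with vehicle, past the end of a gene of 7508 bp. RPL28 had the shortest but for RPL35, with 1249 bp with DHT, and its peak covered 7.22% of the gene. Taller peaks were wider, with a Spearman correlation of height and width of 0.72 with DHT and 0.64 with vehicle over the 56 members, and since a height is read at the highest point of a whole peak, that point may lie in the gene or in a neighbor.

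For some members the ends of the peak differed more between the lists than the height. At RPS6 the peak was 11519 bp wide with DHT and 7319 bp with vehicle. Its reach downstream of the start was 8484 and 4434 bp in the same order, for a gene of 4522 bp. At RPL13A, a large subunit gene, the reach was 6384 bp with DHT and 10224 bp with vehicle. In all, the tallest peak also covered a promoter of another protein-coding gene in 23 members with DHT (41.1%) and 24 with vehicle (42.9%), against 31.0% and 31.1% of all genes. In the 32 members with a peak of their own in both lists, median heights were 60.5 tags with DHT and 55 with vehicle and the median log2 ratio was 0.17.

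**Figure D4:**
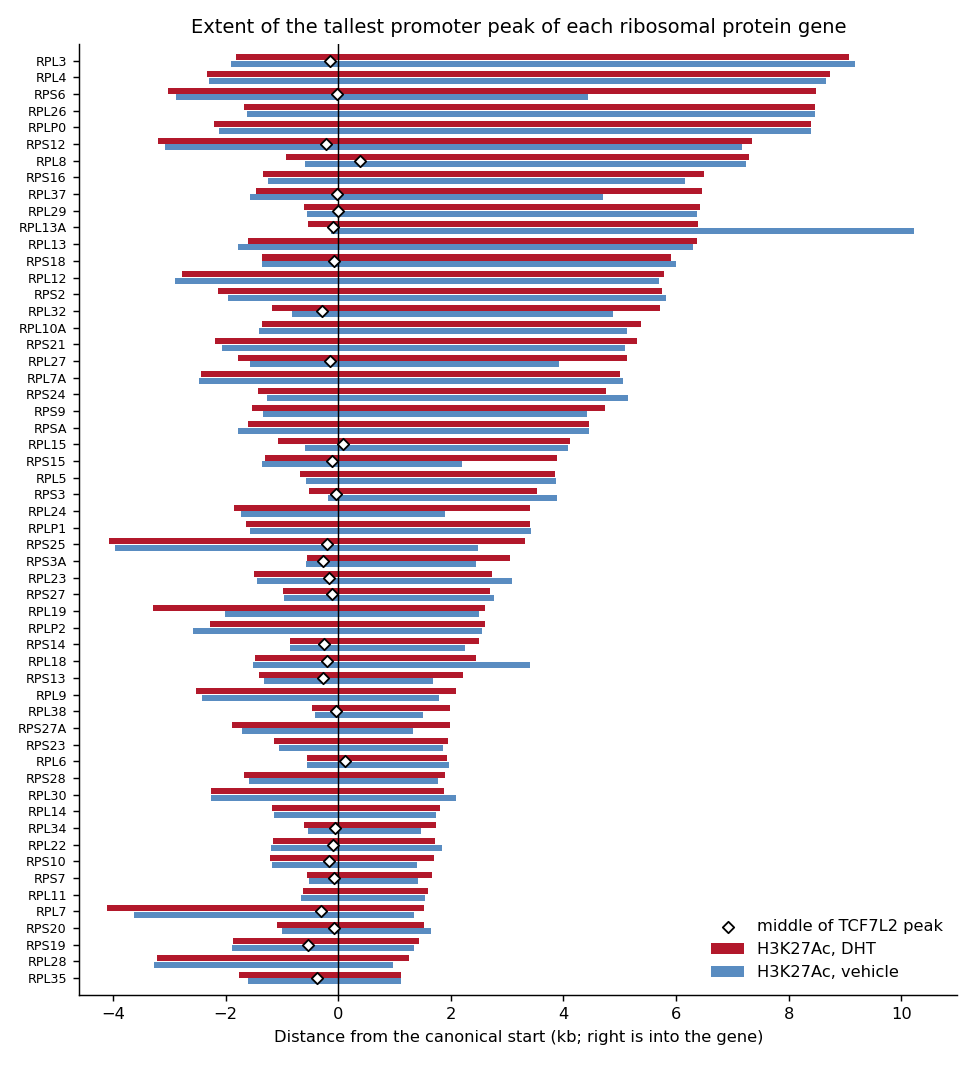
Extent of the tallest promoter H3K27Ac peak of each member from the canonical start (kb, horizontal axis), with DHT (red) above vehicle (blue). Right is downstream, into the gene and, in short genes, past its end. The middle of the TCF7L2 promoter peak is a diamond. Most peaks reach farther to the right (48 of 56 members with DHT), RPL3 the farthest at 9068 bp with DHT, and the diamonds stand close to the start.

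TCF7L2 was found at 30 of 56 members (53.6%). Over all protein-coding genes 20.2% had a TCF7L2 promoter peak, and of those with an H3K27Ac promoter peak with vehicle 31.2%, which is the nearer background, since all members had such a peak. Among the top 15000 TCF7L2 peaks alone, 18 members had one, against 13.3% of all genes. The cells of the 2 antibodies differed in serum, passage and sequencer, so tags of TCF7L2 and of H3K27Ac are on different scales. TCF7L2 peaks were at 16 of 33 large subunit members and 14 of 23 small subunit members, and at 8 of the 10 head proteins of the small subunit. None was at RPLP0, RPLP1, RPLP2, RPL5, RPL11, RPSA or RPS27A. The other lists had 11 of 25 further cytosolic ribosomal protein genes, 5 of 10 elongation factors, 12 of 29 initiation factors, 29 of 76 mitochondrial ribosomal protein genes and 19 of 54 biogenesis factors.

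Most of these peaks were of the usual height for TCF7L2 at promoters. Their median was 28.5 tags (range 17 to 179), against 28 for all genes with a TCF7L2 promoter peak, and the tallest stood far above the rest. RPS27, a small subunit protein with a zinc finger, had 179 tags (95% interval 154 to 207), at percentile 98.2 of the list. RPL37, a zinc finger protein of the large subunit, came next with 64 tags (49.3 to 81.7). RPL27 had 55 tags, RPS19 had 48, RPS7 had 42, RPL15 had 38, RPL13A and RPS25 had 37 each, and RPL3, RPL38 and RPS15 had 34 each. From RPL37 downward, neighbors in this order had overlapping intervals. Members with tall TCF7L2 peaks had both high and low H3K27Ac: RPS27 had 41 H3K27Ac tags with DHT and 35 with vehicle, RPL37 had 77 and 66 in that order, and RPL3 had 107 and 100. Over the 30 members the Spearman correlation of TCF7L2 height with vehicle H3K27Ac height was -0.36. Median H3K27Ac heights were 60.5 tags with DHT and 52 with vehicle in the 30 members with TCF7L2, and 71 and 63 in the 26 without. Their median log2 ratios were 0.18 and 0.17.

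**Figure D5:**
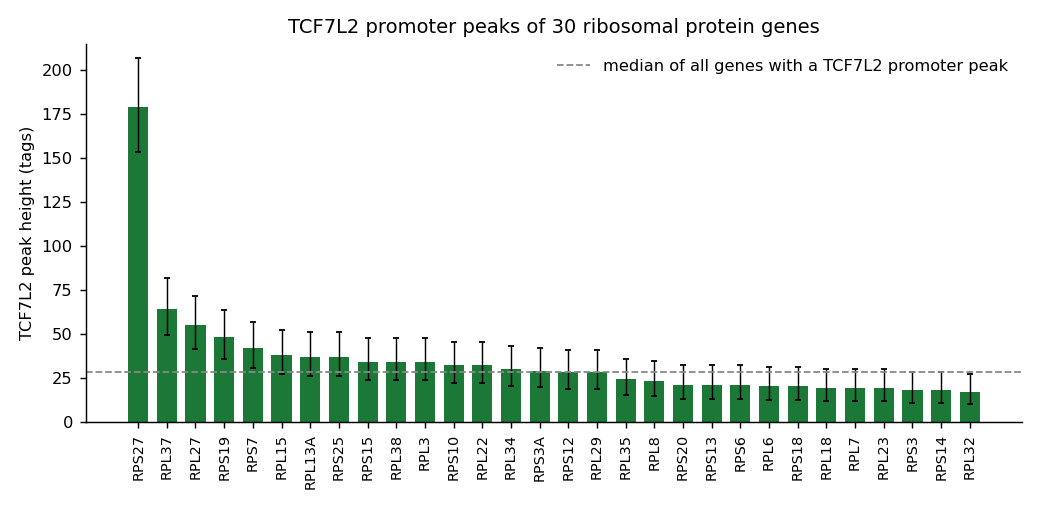
Height of the TCF7L2 promoter peak (tags, vertical axis, from 0) of the 30 members that have one, with exact Poisson 95% intervals as bars (counting error only) and the all-gene median of 28 tags as a dashed line. RPS27 stands at 179 tags, RPL37 next at 64, and the lowest is RPL32 at 17.

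The TCF7L2 peaks sat near the start, and 8 of the 30 (26.7%) also covered a promoter of another gene, against 28.2% of all genes with such a peak. In 29 of 30 members the middle of the peak was within 500 bp of the canonical start, against 2667 of 4074 genes with such a peak, and in 12 (40%) within 100 bp, against 26.6%. The median middle was at -112 bp from the start for members and at -115.5 bp for all genes. The core of the TCF motif was looked for as CTTTGAT and as the same letters with TT, AA or TA in place of the last AT, on both strands over each whole peak. Any form was in 8 of 30 member peaks (26.7%), against 28.4% of 3501 distinct TCF7L2 promoter peaks, and CTTTGAT was in 2, RPL15 and RPS27, against 9.48%. Of the 21 members with CCGGAAG near the start, 15 had a TCF7L2 peak, and of the 35 without it, 15. The same split was not computed over all genes, so it cannot be read as a trait of these members. Since RPS27 has the tallest of these peaks and holds the motif near its middle, 101 bases around it are given from the GRCh37 genome, on the minus strand, where CTTTGAT (capitals) reads 5′ to 3′. The motif lies 91 bp before the RPS27 start, on chromosome 1 from 153963144 to 153963150, and 27.5 bp from the middle of the peak.
RPS27 (chr1:153963097-153963197, minus strand): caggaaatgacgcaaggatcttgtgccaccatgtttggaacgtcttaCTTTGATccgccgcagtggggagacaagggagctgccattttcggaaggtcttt
Within 250 bases before to 50 after the canonical start, RPS27 was the only member with CTTTGAT (1.79% of members, against 1.91% of all genes).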

How the data were processed

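H3K27Ac and TCF7L2 were measured by ChIP-seq in LNCaP cells, with 1 library per condition (the input library was not analysed here). The methods state that H3K27Ac reads were aligned to hg19 with Bowtie 2 and TCF7L2 reads with the ELAND pipeline, whereas Bowtie2, BWA and CASAVA 1.8.2 stand in the processing notes of the submitters without a role. Peaks were called by the authors with Sole-search, library by library. The authors deposited 1 signal value per peak, its height in whole tags, which no source states to be scaled, and read depth is unknown here. The lists hold 60752 peaks (H3K27Ac, DHT), 57623 (H3K27Ac, vehicle) and 20955 (TCF7L2).

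Peaks were overlapped with gene starts of GENCODE release 44 mapped to GRCh37 (1000 bp before to 100 bp after any start, minimum overlap 1 bp) in Python 3.11.15 with pandas 2.3.3 and numpy 2.4.6, and intervals were computed with scipy 1.17.1. Sequences were read from the GRCh37 genome with pyfaidx 0.9.0.4. The overlap and ratio steps were tested on simulated data. No threshold on a measured value entered the choice of members, but the members and all gene lists were chosen with earlier results of these data known. Genes were named by rule: the 8 tallest and 8 lowest promoters with vehicle, the 6 largest and 6 smallest ratios, the members with the 10 tallest TCF7L2 peaks, RPLP0, RPLP1, RPLP2, RPL5, RPL11, RPS6, RPS19, RPS27A and RPSA for their roles, and the extremes of other lists, of which not all are printed. Any other member named was picked with its value in view. Alternatives covered the window, the starts used, the peak chosen, top peak lists, shared peaks, the overlap, the scaling and the fold.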

Additional observations from a re-analysis of the deposited data

How the results depend on the processing

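No paired analysis was possible because each condition had 1 library, and no replicate could be left out. Depth limits the heights: most of these H3K27Ac peaks hold under 100 tags, the lists do not place the highest point within a peak, and TCF7L2 was measured in other serum. Of 69 alternatives computed, 59 stayed within 1.5 times the count reported or, for a median, within a 95% counting interval. For a median height this was the Poisson interval of a single peak of that height, not an interval of a median over genes. For the log2 ratio it came from the summed tags of the members. Staying within these limits is not the same as keeping the value: the vehicle median was 54.5 tags with the peak nearest to a start. Asking that the tallest peaks of both lists overlap could change nothing, since they did so in all 56 members. With the top 25000 H3K27Ac and the top 15000 TCF7L2 peaks, 18 members had a TCF7L2 peak (13.3% of all genes), and 55 members had an H3K27Ac peak with DHT and 54 with vehicle (43.0% and 41.7%). Counting peaks that cover no other gene's promoter, 33 members had one with DHT and 32 with vehicle (39.7% and 38.8% of all genes), 22 had a TCF7L2 peak of their own (14.5%), and 0 were at least 1.5 times higher, since RPS16 shares its peak. With the peak nearest to a start in place of the tallest, 5 members were at least 1.5 times higher with DHT (RPL13A, RPS3, RPS13, RPS14 and RPS16) and 1 lower (RPL5), and all of these but RPS16 had 2 promoter peaks in 1 of the lists. Divided by the all-gene ratio, the median log2 ratio of members was -0.0072 and 0 members were at least 1.5 times higher. At the fold tried below 1.5, 5 members were higher (RPL5, RPL7A, RPS9, RPS16 and RPS28), and at a fold of 2, 0 were. The share of all genes was not computed with the nearest peak or at these other folds. Those counts therefore have no background beside them, and the median ratio over all genes was already 1.13. Narrower and wider windows, coding or canonical starts, and 50% overlap moved the TCF7L2 count between 29 and 31. The pyrimidine tract was at 46 members with 6 pyrimidines after the C, at 44 at the canonical start, and at 55 within 5 bases of a start, where 44.9% of all genes and 50.2% of those with an H3K27Ac promoter peak with vehicle also had one.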

Other observations

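The family has 896 annotated processed pseudogenes of the 56 members (79 of RPL7A), intronless copies that usually left their promoter behind, and 873 of them lie clear of protein-coding promoters. H3K27Ac peaks were over the starts of 42 of these 873 (4.81%) with DHT and 40 (4.58%) with vehicle, at median heights of 38 and 30 tags, and TCF7L2 peaks over 4 (0.458%), where the parent genes had 56, 56 and 30 of 56. The highest with DHT was RPL32P20, with 119 tags with DHT and 65 with vehicle, followed by RPL14P1 with 107 and 85. No share was computed for other pseudogenes or for other windows of that size, so these percentages have no background beside them. Clear refers to the window at the start of the copy, and a counted peak may still cover a neighboring promoter. These peaks lie where the copies landed, and reads of near-identical copies can be placed wrongly, which was not tested.

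Small nucleolar RNA genes lay inside 20 of the 56 members, 41 in all and 4 in RPL4. Promoter heights had medians of 77 tags with DHT and 66.5 with vehicle in those 20, and 60.5 and 52 in the other 36, with no test.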
